A study of Sparassis latifolia with 18 samples.

Results

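The genes described here were 155 genes of *Sparassis latifolia* whose transcript level was highest 1 h after pine sawdust was added to the culture. They came from the 1100 genes of the deposited expression table, of which 985 had EVM identifiers and 115 were newly assembled genes. Genes were eligible when they had an EVM identifier, were absent from 3 supplementary gene lists of the study, and had a mean below 300 FPKM (mapped fragments scaled by transcript length and library size) over 18 libraries. This left 813 genes, and in 704 of them the group means of log2(FPKM + 1) spanned at least 1. The highest group was 1h in 155 of the 704 genes, CK in 198, 6h in 148, 10d in 82, 1d in 72 and 5d in 49. Levels at 1h therefore chose the genes, and every difference from 1h is given as a description with no test.

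All libraries came from mycelium of strain SP-C grown in liquid medium. Sterilized fresh pine sawdust was added at staggered times, so that all flasks could be harvested together, and filtering then removed the sawdust. Pine sawdust inducing (PSI) had by then lasted 10 days, 5 days, 1 day, 6 h, 1 h or 0 h, the last being the control (CK). Each of the 6 groups (CK, 1h, 6h, 1d, 5d and 10d) held 3 libraries of oligo(dT)-selected mRNA, which the study describes as biological replicates. The study left 4 libraries (T-5d-2, T-1d-3, T-1h-3 and CK-1) out of its comparisons, on the basis of correlations between samples. Here the genes were chosen on all 18 libraries, the tests used the other 14, and all 18 were an alternative. In the tests CK, 1h, 1d and 5d thus had 2 libraries each, and the SE and p rest on a spread without the omitted libraries.

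*S. latifolia* is an edible brown-rot fungus of conifer stumps and roots. Brown-rot fungi take the polysaccharides out of wood by combining oxidative chemistry with hydrolytic enzymes and leave most of the lignin behind in modified form. Fresh pine wood also holds resin acids and other extractives that many fungi do not tolerate. None of the 155 identifiers matched the reference gene table, and the sources used here gave no annotation for them, so the genes are named by identifier and no role is stated.

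The deposited values cover a part of the transcriptome, and their sum differed between groups. It was 103912 to 112277 FPKM at 1h, 104867 to 112124 in CK, 129388 to 141562 in 1d and 5d, and 143127 to 148824 in 6h and 10d. The 155 genes alone summed to 17270 to 17581 FPKM at 1h, against 7778 to 9233 in CK, 10164 to 10561 at 6h and 5276 to 5354 at 10d. The part of the unequal totals in the results was not tested. In mycelium measured in bulk, a change in the share of hyphae that express a gene and a change in RNA per hypha cannot be told apart.

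The 1h peak ranged from a clear spike to a difference too small to separate from the neighbouring group. The gap between the 1h mean and the next highest group mean had a median of 0.60 on the log2(FPKM + 1) scale, with quartiles of 0.25 and 0.90 and a highest value of 2.14. It was at least 1 in 29 genes and under 0.1 in 16. In 35 genes the gap was smaller than the SD of the 1h libraries. All 3 libraries of 1h lay above the other 15 in 99 of the 155 genes, where 9.91% of all 1100 genes had this pattern, and the choice of genes favours it. The mean level ran from 1.22 to 296 FPKM with a median of 40.1 FPKM, against a median of 26.0 FPKM for genes of the same rule with another highest group.

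A peak at 1h was not always a difference from CK. All 3 libraries of 1h lay above the 3 of CK in 118 genes, beside 21.9% of all genes. The 1h mean was at least 1 above CK on the log2 scale in 85 genes, which 11.4% of all genes reached, and less than 0.5 above CK in 39 genes. The median difference between 1h and CK was 1.08 over the 155 genes and -0.14 over all genes. The median over the 155 genes of the 1h minus 6h difference was 0.83. The medians of the differences from 1d, 5d and 10d were 1.05, 1.40 and 1.67.

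**Figure D1:**
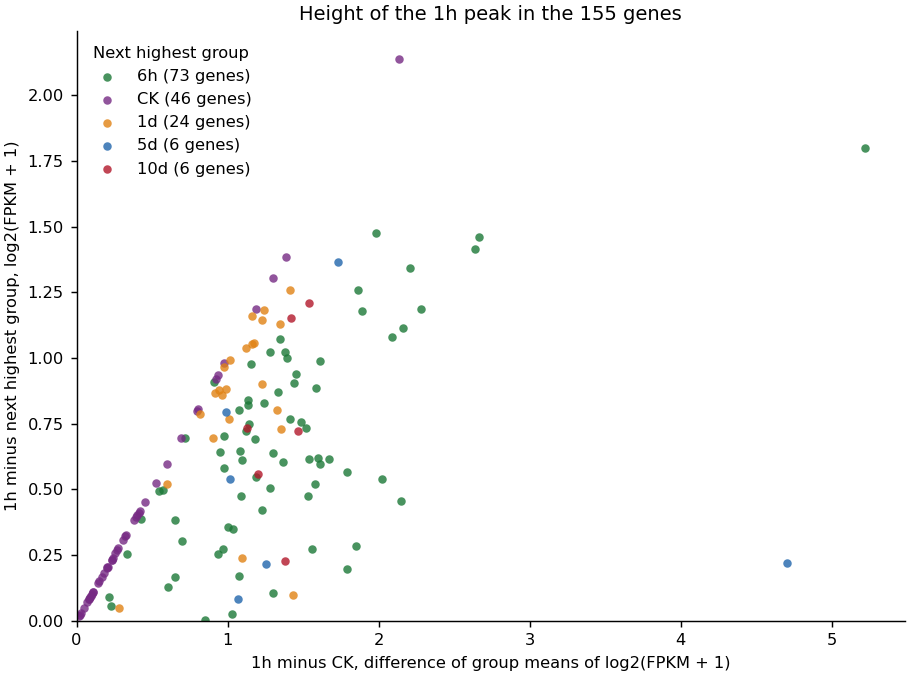
Each point is 1 of the 155 genes, with the 1h minus CK difference of group means on the x axis and the gap between 1h and the next highest group on the y axis, both in log2(FPKM + 1) and coloured by the next highest group. Genes whose next highest group was CK lie on the diagonal, most of them under 0.5, while genes next highest at 6h or 1d mostly lie above 1 on the x axis.

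The 10 genes with the largest gap showed what the sharp end of the group looked like. EVM0000940 had the widest range of all 155 genes, 5.35 on the log2 scale. It was at 10.7, 8.11 and 7.37 FPKM in CK, at 409, 366 and 308 FPKM at 1h and at 109, 88.9 and 110 FPKM at 6h. It then stood at 24.6, 22.8 and 15.8 FPKM at 1d, at 9.55, 11.6 and 4.14 FPKM at 5d and at 7.60, 9.44 and 6.73 FPKM at 10d. The libraries of 1h, 6h and 1d did not overlap with each other or with CK, whereas those of 5d and 10d overlapped with CK.

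EVM0009352 showed the same descent from 1h over 6h to 1d at a higher base, with little scatter in CK, 1h and 6h. Its level was 69.8, 72.2 and 68.1 FPKM in CK, 455, 448 and 442 FPKM at 1h and 164, 163 and 161 FPKM at 6h. It was 72.2, 77.4 and 84.2 FPKM at 1d, 44.3, 70.4 and 41.7 FPKM at 5d and 40.9, 37.7 and 47.7 FPKM at 10d. The 3 libraries of 10d lay below all 3 of CK.

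EVM0005843 had the largest gap, 2.14, at a low level. It was at 2.88, 2.87 and 1.63 FPKM in CK and at 23.6, 18.6 and 5.95 FPKM at 1h. At 6h it was at 2.44, 2.03 and 1.43 FPKM, and every library of 1d, 5d and 10d was between 0.561 and 0.957 FPKM. The lowest library of 1h, T-1h-3, was still above every library of the other groups. EVM0001157, the next low gene, was at 4.21, 5.93 and 5.23 FPKM in CK, at 35.1, 24.6 and 14 FPKM at 1h and at 7.04, 8.74 and 7.20 FPKM at 6h. Its libraries of 1d, 5d and 10d lay between 4.04 and 5.06 FPKM, inside the range of CK or just under it.

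EVM0000233 and EVM0007662 were also intermediate at 6h and ended under CK. EVM0000233 was at 13.6, 29.3 and 24.5 FPKM in CK, at 226, 145 and 81.3 FPKM at 1h, at 52.2, 51.8 and 50.2 FPKM at 6h and at 9.53, 11.1 and 10.1 FPKM at 10d. EVM0007662 was at 51.2, 70.8 and 64.1 FPKM in CK, at 379, 306 and 204 FPKM at 1h, at 111, 112 and 115 FPKM at 6h and at 38.1, 39.8 and 35.3 FPKM at 10d. In both, the libraries of 10d lay below all those of CK.

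EVM0011313 and EVM0005122 were back at or under the level of CK at 6h. EVM0011313 was at 35.6, 50.4 and 54.7 FPKM in CK, at 187, 130 and 74.7 FPKM at 1h and at 37.4, 37.2 and 36.7 FPKM at 6h. EVM0005122 was at 18.2, 13.7 and 12.5 FPKM in CK, at 31.9, 34.3 and 48.2 FPKM at 1h and at 11.1, 12.3 and 10.5 FPKM at 6h. In these 2 genes no library of 6h exceeded the highest of CK. EVM0011247 and EVM0000441 stayed somewhat above CK at 6h. EVM0011247 was at 53.7, 56.8 and 44.5 FPKM in CK, at 115, 188 and 241 FPKM at 1h and at 63.7, 61.8 and 65.4 FPKM at 6h. EVM0000441 was at 24.2, 25.1 and 26.0 FPKM in CK, at 106, 94.7 and 82.8 FPKM at 1h and at 41.1, 35.3 and 40.1 FPKM at 6h. Its libraries of all later times stayed above those of CK, the lowest of them being 28.9 FPKM at 10d.

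**Figure D2:**
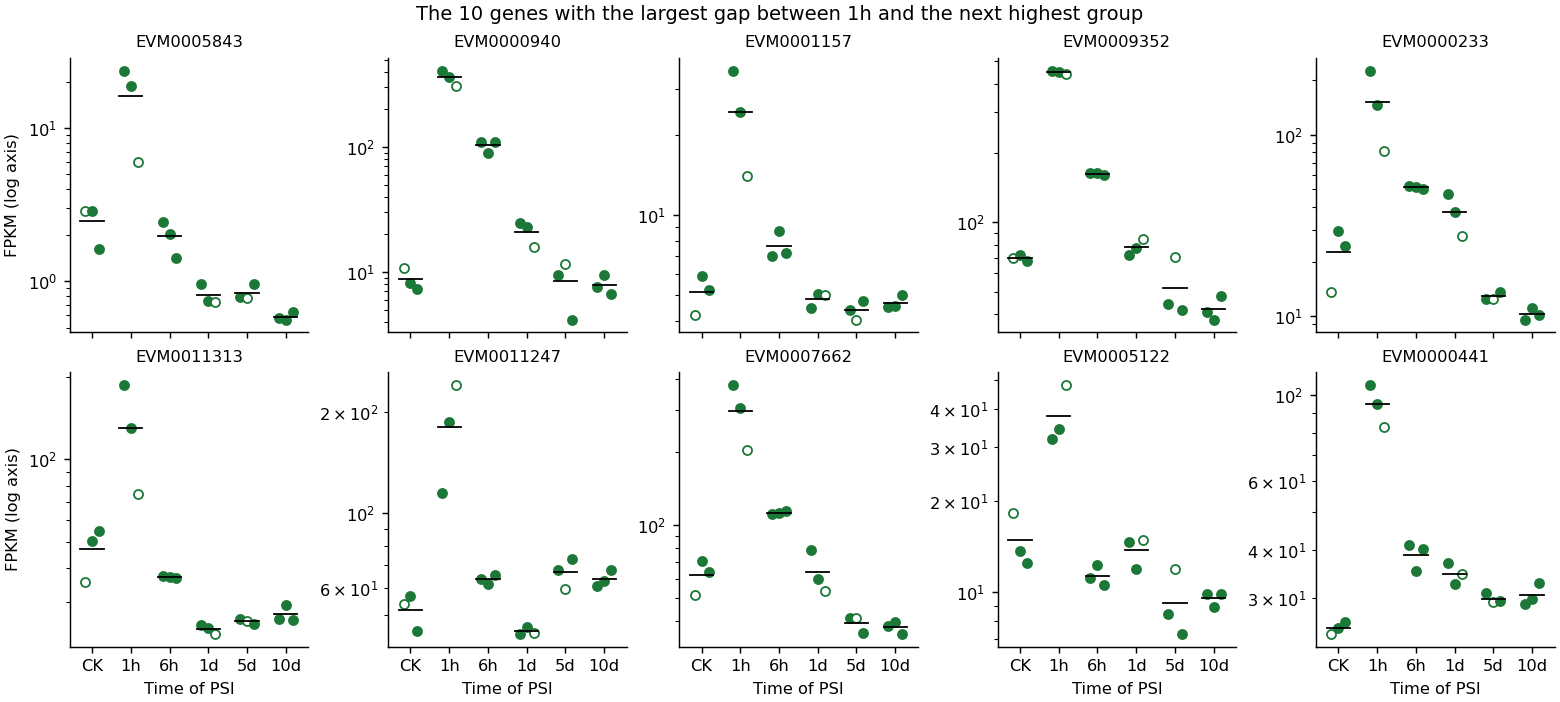
FPKM on a log axis, with its own scale in each panel, against the time of PSI for the 10 genes with the largest gap. Points are the 18 libraries, open points the 4 libraries that the study left out, and bars the mean of 3 libraries. In all 10 genes the 3 libraries of 1h lie above the other 15.

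The 1h libraries were not equally high. T-1h-2 lay between T-1h-1 and T-1h-3 in 118 of the 155 genes, or 76.1%, against 65% of all genes. T-1h-1 was the highest and T-1h-3 the lowest in 67 genes (43.2%, against 36.2% of all genes), and the reverse held in 51 (32.9%, against 28.8%). The 1h libraries differed by more than 2-fold in 21 genes (13.5%), against 10.5% of all genes. A difference of this size with T-1h-3 lowest occurred in 18 genes (11.6%), against 6.91% of all genes. EVM0005843, EVM0001157 and EVM0000233 show the first order, while EVM0011247 and EVM0005122 show the reverse. The median SD of log2(FPKM + 1) within a group was 0.21 at 1h, 0.22 at 1d, 0.19 in CK and 0.18 at 5d, and it was 0.08 at both 6h and 10d, the groups that kept all 3 libraries.

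The left-out libraries departed from their partners in related ways in these genes. CK-1 was below both CK-2 and CK-3 in 98 of the 155 genes, or 63.2%, against 51.2% of all genes. T-1d-3 was below both partners in 45.8% of them against 35.6% of all genes, T-1h-3 in 50.3% against 46.9% and T-5d-2 in 46.5% against 44.8%. All 4 left-out libraries were below the mean of their partners in 47 genes, or 30.3%, against 21.6% of all genes. The genes were chosen on group means that include these 4 libraries, so the choice of genes bears on these shares. Across the 155 genes, Pearson's r between the departures of any 2 of these libraries was 0.36 to 0.57, and across all genes it was 0.34 to 0.59. These are correlations across genes of single libraries, so they carry no p-value.

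**Figure D3:**
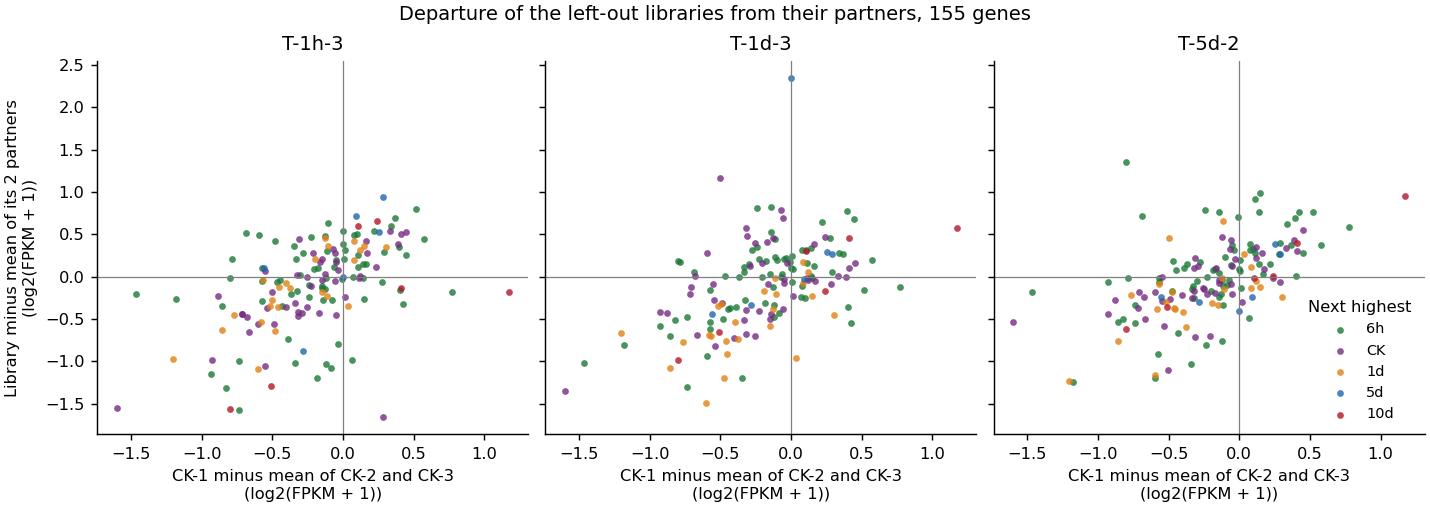
Each point is 1 of the 155 genes, with the departure of CK-1 from the mean of CK-2 and CK-3 on the x axis and the departure of T-1h-3, T-1d-3 or T-5d-2 from its 2 partners on the y axis, in log2(FPKM + 1). The clouds run from lower left to upper right, with r of 0.51 for T-1h-3, 0.51 for T-1d-3 and 0.57 for T-5d-2.

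The genes differed in what came next after 1h, and they were described by their next highest group. This was 6h in 73 genes, CK in 46, 1d in 24, 5d in 6 and 10d in 6. The lowest group was 10d in 100 genes, CK in 21, 5d in 18 and 1d in 16. The grouping uses the same group means as the courses that follow, so the courses describe it and do not test it.

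In the 73 genes next highest at 6h, the median level relative to CK was 1.28 at 1h, 0.64 at 6h, 0.12 at 1d, -0.17 at 5d and -0.37 at 10d on the log2 scale. All 3 libraries of 1h lay above the other 15 in 54 of these genes, where 9.91% of all genes had this pattern. In the 46 genes next highest in CK, the medians were 0.26 at 1h, -0.49 at 6h, -0.62 at 1d, -1.02 at 5d and -1.39 at 10d. The median 1h peak was shallow there, and the course was mostly a decline from 1h to 10d. Still, 19 of the 46 genes were free of overlap, beside the same 9.91% of all genes, and the choice of genes favours this.

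In the 24 genes next highest at 1d the course had a dip. The medians relative to CK were 1.11 at 1h, -0.17 at 6h, 0.11 at 1d, -0.34 at 5d and -0.72 at 10d. The rise of the 1d median was uneven between libraries, at 0.53 in T-1d-1, 0.19 in T-1d-2 and -0.13 in T-1d-3, and CK-1 was at -0.26 against 0.14 in CK-2 and 0.06 in CK-3. The 6 genes next highest at 5d had medians of 1.16 at 1h, 0.46 at 6h, 0.16 at 1d, 0.73 at 5d and 0.30 at 10d. The 6 genes next highest at 10d had medians of 1.40 at 1h, 0.25 at 6h, 0.12 at 1d, 0.39 at 5d and 0.52 at 10d.

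**Figure D4:**
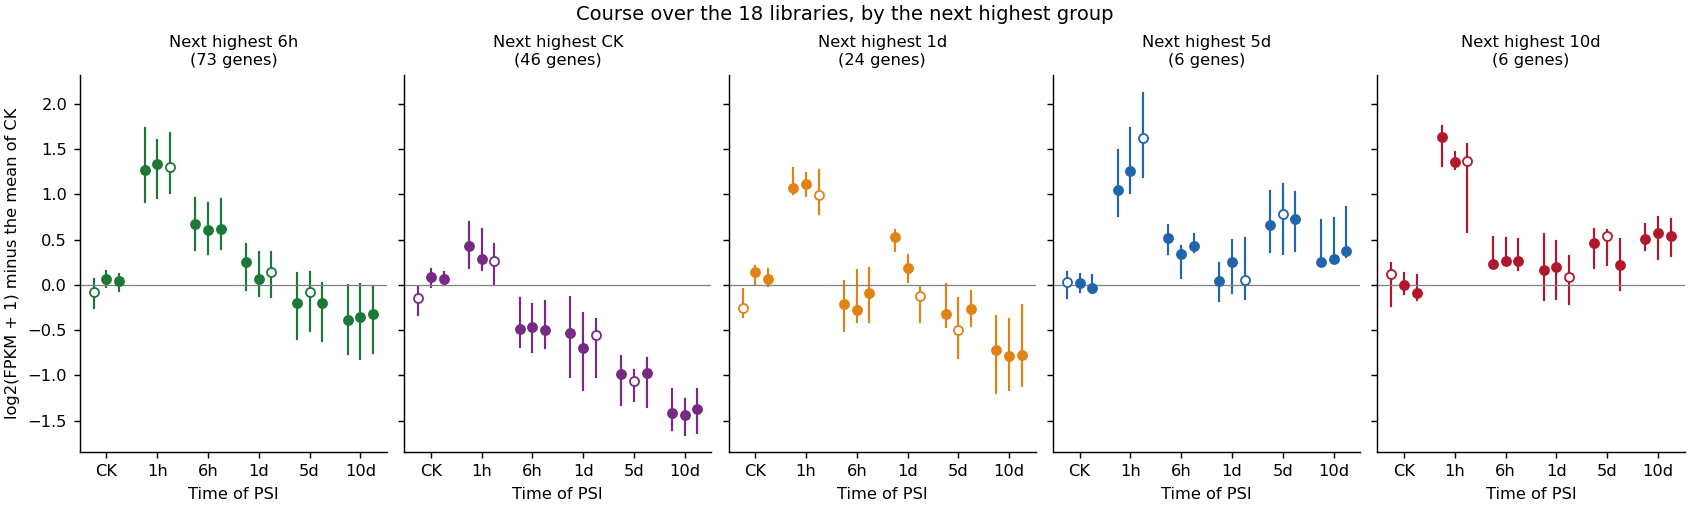
Median over the genes of log2(FPKM + 1) minus the CK mean of each gene in the 18 libraries, in 5 panels by the next highest group. Points are medians, lines run between the quartiles over genes, and open points are the libraries that the study left out. The 73 genes next highest at 6h fall in steps from 1.28 at 1h to -0.37 at 10d, and the 24 genes next highest at 1d dip to -0.17 at 6h.

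Contrasts without 1h were tested with limma on log2(FPKM + 1) over the 1088 genes that passed a filter on low values, and a gene was called up or down where the Benjamini-Hochberg adjusted p was under 0.01 and its level changed by more than 2-fold. All 155 genes passed the filter. The rule bears on these contrasts too, since every other group had to lie below 1h and the lowest at least 1 below it. The 4 comparisons with CK share the CK libraries and are therefore not independent of each other. Fold changes on this scale understate the change of genes with low FPKM.

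At 6h, 14 of the 155 genes (9.03%) were called up against CK and 5 (3.23%) down, where 13.9% of all tested genes were called up and 8.82% down. The median log2 fold change was 0.20 over the 155 genes and 0.02 over all genes. The share called in this fit was lower than over the whole table in both directions. The choice of genes bears on this, since all tested genes include those highest in CK or at 6h, which the rule keeps out. With quantile normalization the split turned to 7 up, all among the 14, and 15 down, where 10.5% of all tested genes were then called up and 10.4% down. With all 18 libraries 18 genes were called up and 1 down, where 154 of the 1093 genes then tested were called up and 48 down. The count called down was 3 without T-6h-1 and 8 without T-6h-3. Of the 14 genes called up, 13 were next highest at 6h, and 4 of the 5 called down were next highest in CK. This partly follows from the grouping, which places 6h above CK in the former genes and below CK in the latter.

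The largest rise at 6h was that of EVM0000940, at 3.56 ± 0.23 (SE) on the log2 scale (limma adjusted p = 2.55e-08). EVM0003590 was at 66.0, 61.8 and 63.5 FPKM in CK, at 238, 209 and 223 FPKM at 1h, at 189, 194 and 200 FPKM at 6h and at 95.8, 91.8 and 117 FPKM at 1d. It rose by 1.62 ± 0.07 at 6h (limma adjusted p = 1.69e-09), and its levels at 10d, 68.4, 66.8 and 67.5 FPKM, were again close to those of CK. EVM0011007 was at 60.4, 70.7 and 72.1 FPKM in CK, at 339, 303 and 270 FPKM at 1h, at 234, 205 and 224 FPKM at 6h and at 49.1, 48.3 and 52.6 FPKM at 10d. It rose by 1.61 ± 0.08 at 6h (limma adjusted p = 3.55e-09). In both genes the libraries of 6h were above all of CK and below all of 1h.

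EVM0003117 was at 107, 128 and 133 FPKM in CK, at 386, 446 and 505 FPKM at 1h and at 380, 336 and 376 FPKM at 6h, a rise of 1.47 ± 0.09 at 6h that came to 0.98, under the fold threshold, with quantile normalization. EVM0005005 was at 16.2, 18.6 and 18.6 FPKM in CK, at 111, 90.0 and 43.0 FPKM at 1h and at 56.1, 53.3 and 46.1 FPKM at 6h, a rise of 1.42 ± 0.14. Here T-1h-3 lay below all libraries of 6h, so the order of 1h and 6h rests on the other 2 libraries of 1h. The other genes called up at 6h were EVM0004532, EVM0004803, EVM0005095, EVM0005878, EVM0005892, EVM0009352, EVM0010137, EVM0011920 and EVM0012346.

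In 4 of the 5 genes called down at 6h, the libraries of 1h overlapped with those of CK. EVM0008188 was at 13.6, 44.2 and 42.1 FPKM in CK, at 62.9, 45.7 and 17.6 FPKM at 1h and at 14.2, 13.8 and 13.9 FPKM at 6h. It fell by 1.56 on the log2 scale (SE 0.15, limma adjusted p = 1.18e-06), but CK-1 lay with the libraries of 6h, and with all 18 libraries the change was -1.03 with an SE of 0.48 and was not called. EVM0004391 was at 13.1, 17.3 and 15.8 FPKM in CK, at 18.4, 18.3 and 25.2 FPKM at 1h and at 7.55, 6.92 and 5.97 FPKM at 6h. It fell by 1.17 (SE 0.16), was the 1 gene of the 5 that was also called with all 18 libraries, and had no overlap between CK and either 1h or 6h.

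EVM0009940 was at 267, 309 and 309 FPKM in CK, at 284, 313 and 361 FPKM at 1h, at 153, 155 and 154 FPKM at 6h and at 84.5, 89.0 and 97.0 FPKM at 1d. It fell by 1.00 at 6h (SE 0.07) and stood higher again at 5d, at 180, 111 and 182 FPKM. EVM0008116 was at 9.61, 17.0 and 15.7 FPKM in CK, at 19.6, 17.8 and 13.5 FPKM at 1h and at 8.31, 6.41 and 6.17 FPKM at 6h. EVM0011597 was at 89.6, 171 and 156 FPKM in CK, at 236, 234 and 152 FPKM at 1h and at 76.1, 89.0 and 76.8 FPKM at 6h. EVM0008116 fell by 1.13 and EVM0011597 by 1.01 (SE 0.11), and in both genes CK-1 was the lowest library of CK. Neither gene, nor EVM0009940, was called with all 18 libraries, and both EVM0009940 and EVM0011597 were at the edge of the fold threshold. EVM0009940 lost its call without CK-3 or T-6h-1, and EVM0011597 lost it without CK-2, T-6h-1 or T-6h-3, at -0.98 to -0.95.

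At 1d, 4 genes (2.58%) were called up against CK and 20 (12.9%) down, where 8.55% of all tested genes were called up and 18.3% down. The 4 called up were EVM0000940, EVM0003837, EVM0005878 and EVM0005892. EVM0005878 was at 4.92, 4.73 and 3.98 FPKM in CK, at 31.0, 24.5 and 22.8 FPKM at 1h, at 10.6, 10.2 and 11.7 FPKM at 6h and at 10.2, 10.2 and 10.0 FPKM at 1d, a plateau above CK. Its call at 1d was lost without CK-3, at 0.96. EVM0003837 was at 15.7, 24 and 24.6 FPKM in CK, at 68.1, 52.3 and 27.5 FPKM at 1h, at 33.5, 36.9 and 35.6 FPKM at 6h and at 69.3, 44.3 and 19.1 FPKM at 1d. T-1d-3 thus lay below CK-2 and CK-3, and the call was lost with all 18 libraries, at 0.86, and without T-1d-1, at 0.84. With all 18 libraries 3 genes were called up at 1d and 15 down, where 71 of the 1093 genes then tested were called up and 158 down.

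At 5d the calls were 2 up (1.29%) and 39 down (25.2%), where the table had 14.2% up and 22.3% down. The count called up was 1 without any 1 of CK-3, T-1h-1, T-1h-2 and the libraries of 10d. With all 18 libraries the counts were 2 up and 31 down, where 128 of the 1093 genes then tested were called up and 192 down. The median log2 fold change at 5d was -0.51 over the 155 genes and -0.23 over all genes.

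At 10d the calls against CK were 2 up (1.29%) and 66 down (42.6%), where 18.5% of all tested genes were called up and 35% down. The median log2 fold change was -0.73 over the 155 genes and -0.44 over all genes. With quantile normalization, which brought the median of all genes to 0.01, the median over the 155 genes was -0.50, with 5 called up and 42 down, where 23.3% of all tested genes were then called up and 21.4% down. With all 18 libraries 1 gene was called up and 63 down, where 154 of the 1093 genes then tested were called up and 348 down. Against 6h, none of the 155 genes was called up at 10d and 66 (42.6%) were called down, where 10.8% of all genes were called up and 27% down, and with quantile normalization 32 were called down, where 18.5% of all genes were called up and 15% down. At an unadjusted p under 0.05, 135 of the 155 genes differed between 10d and 6h in either direction, where 83.2% of all tested genes did, and the log2 fold change was above 0 in 10.

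The fall at 10d was spread unevenly over the courses. Over all tested genes, 35% were called down at 10d against CK and 27% against 6h. Of the 46 genes next highest in CK, 42 were called down at 10d against CK and 21 against 6h. Of the 73 genes next highest at 6h, 15 were called down at 10d against CK and 43 against 6h. Of the 24 genes next highest at 1d, 9 were called down at 10d against CK, close to the share over all genes, and 2 against 6h. Of the 12 genes next highest at 5d or 10d none was called down in either comparison. These counts partly follow from the grouping, since a gene next highest in CK has all later groups below CK.

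**Figure D5:**
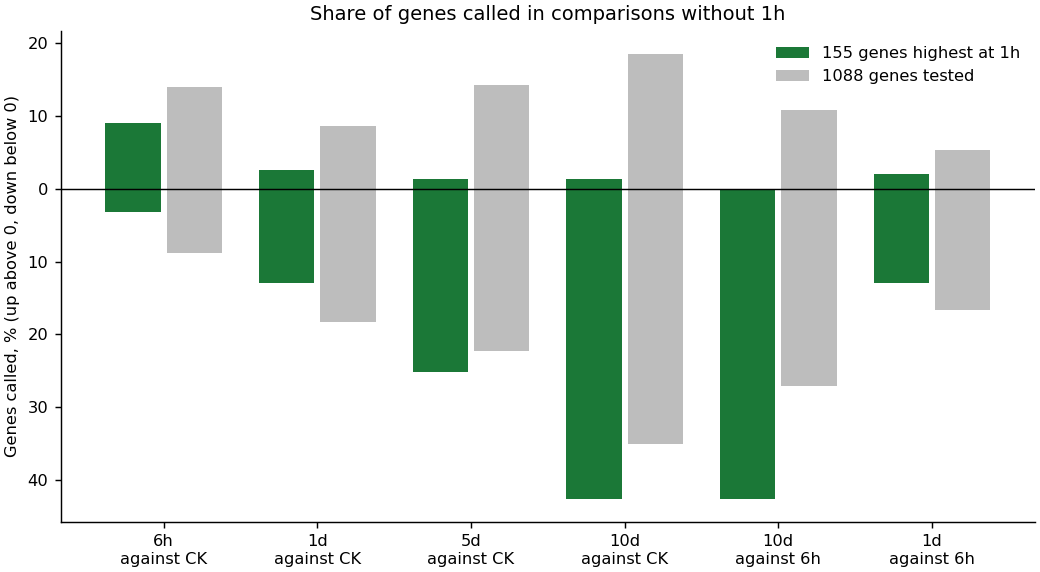
Bars give the percentage of genes called by limma, up above 0 and down below 0, in the 6 contrasts without 1h, for the 155 genes in green and for the 1088 tested genes in grey. At 10d, 42.6% of the 155 genes were called down against CK and 42.6% against 6h, beside 35% and 27% of all tested genes.

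The 5 genes with the largest called falls at 10d were at 13.6 FPKM or more in every library of CK. EVM0004845 was at 19.2, 24.4 and 31.4 FPKM in CK, at 38.2, 36.6 and 32.7 FPKM at 1h, at 12.9, 11.8 and 16.7 FPKM at 6h and at 2.29, 1.59 and 4.18 FPKM at 10d. It fell by 3.02 at 10d on the log2 scale (SE 0.27, limma adjusted p = 2.28e-07), and no library of 10d overlapped with CK. EVM0006596 was at 56.9, 87.4 and 85.4 FPKM in CK, at 146, 184 and 231 FPKM at 1h, at 87.8, 90.8 and 91.7 FPKM at 6h and at 12.1, 10.2 and 12.6 FPKM at 10d. It fell by 2.79 (SE 0.12, limma adjusted p = 3.02e-10), after a 6h level close to CK (log2 fold change 0.06, SE 0.12). CK-1, at 56.9 FPKM, was not in this fit. Over all 18 libraries the group means on the log2 scale were 6.25 in CK, 6.51 at 6h and 3.65 at 10d.

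EVM0008427 and EVM0007125 had nearly level values from CK to 6h and a step down by 1d. EVM0008427 was at 254, 316 and 320 FPKM in CK, at 290, 328 and 313 FPKM at 1h and at 294, 278 and 261 FPKM at 6h. It was then at 96.9, 86.1 and 56.9 FPKM at 1d, at 66.3, 69.1 and 62.8 FPKM at 5d and at 46.4, 42.2 and 49.6 FPKM at 10d, and it fell by 2.76 at 10d (SE 0.09, limma adjusted p = 1.91e-11). EVM0007125 was at 116, 141 and 131 FPKM in CK, at 149, 157 and 142 FPKM at 1h, at 127, 121 and 122 FPKM at 6h and at 47.5, 47.2 and 35.6 FPKM at 1d. It was at 25.7, 24.2 and 22.6 FPKM at 10d, a fall by 2.45 (SE 0.08). In EVM0008427 the libraries of 1h overlapped with CK, and in EVM0007125 they lay above CK by a small margin, at 142 against 141 FPKM for the nearest pair, so the place of both genes among the 155 rests on small differences. EVM0008188 fell by 2.43 at 10d (SE 0.15, limma adjusted p = 8.67e-09), to 7.68, 8.11 and 6.01 FPKM. That fit left out CK-1, at 13.6 FPKM against 44.2 and 42.1 FPKM in its partners, so the size of the fall rests on this omission. Over all 18 libraries its group means on the log2 scale were 4.93 in CK and 3.04 at 10d.

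The 2 genes called up at 10d, which were also the 2 called up at 5d, were EVM0003819 and EVM0010427. EVM0003819 was at 186, 152 and 152 FPKM in CK, at 232, 425 and 602 FPKM at 1h, at 262, 244 and 249 FPKM at 6h, at 199, 234 and 260 FPKM at 1d, at 312, 380 and 319 FPKM at 5d and at 297, 303 and 331 FPKM at 10d. It rose by 1.02 at 10d (SE 0.18, limma adjusted p = 0.000113). The change was under the fold threshold with all 18 libraries, at 0.92, without T-10d-3, at 0.97, and with quantile normalization, at 0.63. Its call at 5d was also lost with quantile normalization, at 0.79. Every library under PSI was above every library of CK.

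EVM0010427 was listed at 0 FPKM in all 3 libraries of CK, in T-6h-2 and in T-1d-1. In the other libraries it was at 25.4, 24.6 and 25.1 FPKM at 1h, at 24.2 and 21.3 FPKM at 6h, at 19.4 and 22 FPKM at 1d, at 23.7, 17.5 and 23.4 FPKM at 5d and at 18.8, 20.0 and 15.6 FPKM at 10d. The values were thus either 0 or 15.6 FPKM and above. Its call at 5d was lost without any 1 library of CK, 1h, 5d or 10d among the 14, and its call at 10d (limma adjusted p = 0.00589) without CK-2, CK-3 or any 1 library of 10d, at adjusted p from 0.0125 to 0.0309 in limma. No fold is given, since a value of 0 in a table without counts can be a failed estimate.

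Genes with a dip at 6h were looked at after their values were seen. The 6h mean lay below the 1d mean in 40 of the 155 genes, or 25.8%, against 36.4% of all genes, and in 33 of the 40 it was also below CK. In a comparison of 1d with 6h, 3 of the 155 genes (1.94%) were called up and 20 (12.9%) down, where 5.24% of all tested genes were called up and 16.7% down. With quantile normalization the split was 8 up and 10 down, where 9.38% of all tested genes were called up and 10.6% down. The count called up was 0 without T-1d-1 and 8 without T-1d-2. EVM0000419 was at 88.3, 129 and 115 FPKM in CK, at 228, 218 and 174 FPKM at 1h, at 72.0, 75.4 and 70.7 FPKM at 6h and at 163, 139 and 88.9 FPKM at 1d. EVM0011032 was at 34.1, 49.0 and 45.2 FPKM in CK, at 86.1, 85.4 and 79.0 FPKM at 1h, at 26.9, 25.8 and 30.6 FPKM at 6h and at 61.4, 51.7 and 29.6 FPKM at 1d. Together with EVM0011597, which was at 208, 159 and 85.3 FPKM at 1d, these were the 3 genes called up. In all 3, T-1d-3 was the lowest library of 1d. None was called with all 18 libraries, where 24 of the 1093 genes then tested were called up.

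The genes nearest to the range limit of 1 lay close to it on both sides. The members with the smallest range were EVM0006916 at 1.03, EVM0009132 at 1.04 and EVM0006604 at 1.06 on the log2 scale. Only 3 eligible genes highest at 1h had a range under 1, EVM0005854 at 0.996, EVM0012985 at 0.99 and EVM0005028 at 0.93. All 3 had CK as their lowest group. EVM0006604 also had almost no gap, with 115, 113 and 93.7 FPKM at 1h and 113, 104 and 103 FPKM at 6h. The highest mean levels were those of EVM0004349 (296 FPKM), EVM0003819 (286 FPKM) and EVM0003851 (256 FPKM), and the lowest those of EVM0012149 (1.22 FPKM), EVM0003453 (1.78 FPKM) and EVM0005803 (2.27 FPKM). EVM0004349 was at 290, 473 and 482 FPKM in CK and at 509, 442 and 348 FPKM at 1h, so that the groups overlapped and the kept libraries of CK and 1h were nearly level.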

How the data were processed

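Mycelium RNA-seq libraries of 6 groups were used as FPKM values that the authors deposited. Per the study's methods, HISAT2 mapped the reads and StringTie assembled transcripts. The methods name STAR-RSEM for quantifying expression and an RSEM-based algorithm of the Trinity package for normalization. Bowtie 0.12.2 appears in the submitters' processing notes. Neither the genome build nor an account of how the 1100 genes were selected is given in the sources used here, and the unit was read from equal values in the study's own FPKM tables. FPKM values hold no counts, so counting depth per gene is unknown and errors come from the spread between libraries alone. Genes and lists were chosen with earlier results of these data known.

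Values were transformed to log2(FPKM + 1). limma 3.58.1 in R 4.3.3, with a variance trend, fitted all 6 groups on 14 libraries, for genes with at least 1 FPKM in at least 2 of them (1088 genes). Benjamini-Hochberg adjustment ran over all of these. The procedure was tested on simulated data. Alternatives were quantile normalization, all 18 libraries, a fit on the compared groups alone, a pseudocount of 0.1, no filter, an adjusted p of 0.05, a block by replicate number, and leaving out each library. The comparison of 1d with 6h was added after seeing the data. Named genes were the 10 with the largest gap, the 5 largest called rises and falls at 6h and at 10d, the 3 genes on each side of the range limit, and the 3 highest and 3 lowest by mean FPKM. Genes of the supplementary lists with the same course and genes called up in a comparison were added. Genes outside these were chosen after their values were seen.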

Additional observations from a re-analysis of the deposited data

How the results depend on the processing

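The 155 genes numbered 155 with group means over 14 libraries (143 shared), 157 with a pseudocount of 0.1 (155 shared), 138 with quantile normalization (133 shared), 115 with a range limit of 1.5, and 146 to 170 with 1 library left out. Counts of called genes moved by over 1.5 times mainly under quantile normalization, which gave 7 up with 15 down for 6h, 5 up with 42 down for 10d, 32 down for 10d against 6h, and 8 up with 10 down for 1d against 6h. With all 18 libraries 1 gene was down at 6h, 1 up at 10d and 0 up at 1d against 6h, and the other counts stayed within 1.5 times. With 1 library left out, 3 to 8 genes were down at 6h (3 without T-6h-1, 8 without T-6h-3), 1 to 2 up at 5d (1 without CK-3, T-1h-1, T-1h-2 or any library of 10d), 0 to 2 up at 10d (0 without T-10d-3, and 1 without CK-2, CK-3, T-10d-1 or T-10d-2) and 0 to 8 up at 1d against 6h (0 without T-1d-1, 8 without T-1d-2). The other left-out ranges stayed within 1.5 times. The causes were not tested.

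The replicate number as a block left 1 gene up at 10d and moved no other count by over 1.5 times. Departures of same-numbered libraries had a mean r of -0.05 over 45 pairs, and 7 were over 0.1. For libraries of different number the mean r was 0.03 over 90 pairs, and 23 were over 0.1. Whether the numbers pair the libraries was not tested. Of the gene values named in the tested contrasts, none reversed. The calls of EVM0010427 at 5d and 10d, of EVM0009940 at 6h and of EVM0005878 at 1d were lost under the block.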

Other observations

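The same course occurred in 16 genes of the table that did not qualify for the group, 4 because they were in the study's supplementary lists, 6 because their mean was 300 FPKM or more and 6 because they were newly assembled genes. Among the first 4, 3 had a protein domain in the study's annotation. EVM0006776 carries a TEA/ATTS domain, the DNA-binding domain of a family of transcription factors. It was at 24.5, 29.6 and 31.7 FPKM in CK and at 325, 226 and 163 FPKM at 1h, and its gap to the next highest group was 0.90 on the log2 scale. EVM0010191 carries a protoglobin domain, found in proteins that bind oxygen through haem. It was at 47.4, 76.7 and 63.1 FPKM in CK and at 142, 214 and 236 FPKM at 1h, with a gap of 0.46. EVM0005770 belongs to the major facilitator superfamily of membrane transporters. It was at 138, 433 and 441 FPKM in CK and at 475, 439 and 317 FPKM at 1h, so that CK and 1h overlapped and CK-1 stood apart from its partners. These levels chose the genes and were not tested.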
